A study of Mus musculus with 6 samples.

Results

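The genes described here encode the Id proteins Id1, Id2 and Id3 and the E proteins Tcf3, Tcf4 and Tcf12, which make up 6 of the 54532 genes in the deposited table. They were taken by gene symbol, and Id3 was picked because it was higher with NETs, so its difference between the groups is described without a test. NETs are neutrophil extracellular traps, chromatin strands carrying granule proteins that neutrophils cast out. The RNA came from C57BL/6 spleen lymphocytes labelled naive CD4+ T cells, which all received CD3/CD28 beads, IL-2 and antibodies against IFN-gamma and IL-4 for 72 h, together with either NETs (3 libraries) or vehicle (3 libraries). The sources used here do not give the animals' age and sex, or the origin and amount of the NETs. The libraries are not said to come from separate animals or wells, so the spread between them may be technical.

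E proteins are basic helix-loop-helix transcription factors that bind DNA at E-box sites as dimers. Id proteins have the helix-loop-helix but not the basic, DNA-contacting stretch, so an E protein paired with an Id protein cannot bind. In T cells this pairing is known as a brake: E proteins hold cells at checkpoints in the thymus and in the mature naive state, and signals from the T cell receptor raise Id3, through ERK and Egr factors, to release it. Tcf3 encodes the splice forms known as E2A, and Tcf12 encodes HEB. Despite their symbols, these genes are not related to the HMG-box factors Tcf7 and Lef1.

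The 3 Id genes resemble each other most in the part that codes for the helix-loop-helix, shown here because reads from such a stretch could be given to the wrong gene. The windows of 120 bases are the best-matching ones between the coding sequences of GENCODE M21 (build GRCm38). Capitals mark the 77 bases that are the same in Id1, Id2 and Id3. They lie in exon 1 of each gene, at chr2:152736518-152736637 on the plus strand for Id1, chr12:25095783-25095902 on the minus strand for Id2 and chr4:136144002-136144121 on the plus strand for Id3.
Id1: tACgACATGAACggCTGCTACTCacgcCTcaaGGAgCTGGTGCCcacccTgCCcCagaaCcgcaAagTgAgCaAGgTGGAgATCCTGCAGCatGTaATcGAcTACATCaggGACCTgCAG
Id2: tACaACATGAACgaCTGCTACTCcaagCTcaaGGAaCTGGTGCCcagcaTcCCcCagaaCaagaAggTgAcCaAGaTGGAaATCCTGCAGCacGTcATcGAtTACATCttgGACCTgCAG
Id3: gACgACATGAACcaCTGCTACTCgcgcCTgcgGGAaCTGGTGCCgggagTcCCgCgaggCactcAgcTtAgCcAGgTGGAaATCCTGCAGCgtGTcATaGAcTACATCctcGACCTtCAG

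Within this window Id3 matched Id1 at 70.8% and Id2 at 71.7% of the bases, while Id1 and Id2 matched each other at 81.7%. Over all annotated transcripts, the longest run of identical bases was 12 between Id3 and Id1 and 19 between Id3 and Id2. Reads longer than these runs can be told apart. The sources used here do not give the read length.

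The E protein genes also resemble each other. Their best-matching coding window, which covers the later helix of the domain and the stretch after it, is shown for Tcf3 (exons 18 and 19, within chr10:80410222-80410464, minus strand) and Tcf12 (exons 19 and 20, within chr9:71849873-71856371, minus strand), with the 90 shared bases in capitals.
Tcf3: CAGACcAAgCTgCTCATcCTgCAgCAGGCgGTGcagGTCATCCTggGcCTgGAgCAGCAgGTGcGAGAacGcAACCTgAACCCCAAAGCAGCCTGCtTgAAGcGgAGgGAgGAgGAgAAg
Tcf12: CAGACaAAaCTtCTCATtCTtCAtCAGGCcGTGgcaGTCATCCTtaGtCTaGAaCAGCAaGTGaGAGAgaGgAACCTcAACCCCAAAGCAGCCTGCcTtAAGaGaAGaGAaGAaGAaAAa

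The longest identical run was 18 bases between Tcf3 and Tcf12, 23 between Tcf3 and Tcf4, and 47 between Tcf4 and Tcf12. A read inside that last run would match both genes, so the low Tcf4 level is the one most open to reads of its relative, and this was not tested.

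The libraries held between 15657622 and 18655997 counts. Levels are given as CPM, the reads of a gene scaled to the total counts of its library, and as FPKM, which also divides by a length and alone allows one gene to be set beside another. All 6 genes passed the filter on low counts, as did 13900 genes in the table. Of the label, the CD4+ T cell part was checked on markers, and the naive state was not. Cd4 lay between 854 and 955 CPM in the 6 libraries, Cd3e between 318 and 449 CPM, and Cd8a between 0.815 and 2.39 CPM. Cd8b1, the other chain of the CD8 receptor, was more abundant at 12.2 to 18.8 CPM.

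Id3 was higher with NETs, whereas the levels of its relatives Id1 and Id2 overlapped between the groups. Id3 (ENSMUSG00000007872; GRCm38 chromosome 4, 136143497 to 136145755) stood at 33.1, 24.8 and 33.8 CPM in vehicle replicates 1 to 3 and at 41.5, 41.5 and 44.6 CPM in NETs replicates 1 to 3. All 3 NETs libraries lay above all 3 vehicle libraries, and vehicle replicate 2 was the lowest. The vehicle mean was 30.6 ± 4.98 CPM and the NETs mean 42.6 ± 1.78 CPM (SD, n = 3 per group). The fitted NETs level was 1.403-fold that of vehicle (log2 fold change 0.49, SE 0.13). The counts behind them ran from 389 to 765 reads per library. Leaving out vehicle replicate 2 gave a log2 fold change of 0.37, the lowest among the fits without 1 library, and the highest was 0.57.

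Among the 13900 genes tested, 4.38% had a larger log2 fold change than Id3. NETs libraries lay wholly above vehicle libraries in 7.68% of the genes tested and wholly below in 9.04%, and Id3 was the 1 gene of the 6 whose groups did not overlap. In the edgeR quasi-likelihood fit, after Benjamini-Hochberg adjustment, 0 genes in the whole table (0%) passed an adjusted p of 0.05, and 1776 (12.8%) had an unadjusted p under 0.05, of which 934 (6.72%) were higher and 842 (6.06%) lower with NETs. DESeq2 called 162 genes, limma-voom 1, and limma-trend on FPKM 2.

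Some markers of myeloid cells also separated the groups. The 10 neutrophil markers summed to between 1.55 and 2.87 CPM with vehicle and between 4.13 and 5.27 CPM with NETs, with the neutrophil surface gene Ly6g at 0 reads in every library. S100a9 had 0 reads in every vehicle library and between 0.932 and 1.30 CPM with NETs, and S100a8 at most 0.0639 CPM with vehicle and between 0.408 and 0.598 CPM with NETs. Mpo, Ltf, Elane and Csf3r overlapped between the groups. The 10 markers of macrophages and conventional dendritic cells summed to between 71.3 and 87.5 CPM with vehicle and between 98.7 and 113 CPM with NETs. Lysozyme Lyz2 and cystatin Cst3 made up most of that sum. The macrophage receptor gene Csf1r overlapped between the groups. Another macrophage marker, Adgre1, was higher in every NETs library, at 2.15, 2.39 and 2.45 CPM against 0.590, 2.11 and 1.55 CPM with vehicle. Itgax, which was below the filter, had 7, 8 and 1 reads with NETs against 32, 8 and 7 with vehicle. In CPM its groups nearly met, at 0.4349 in NETs replicate 2 and 0.4352 in vehicle replicate 3. Clec9a, which defines a dendritic subset, was at 1 read in vehicle replicate 1 and 0 elsewhere. The source of these reads, cells or material added with the NETs, and their part in the Id3 level were not tested. In bulk RNA, more cells that carry a transcript, more transcript per cell and transcript added with the NETs cannot be told apart.

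Id2, the other abundant Id gene and the one best known from innate lymphoid and effector cells (ENSMUSG00000020644; chromosome 12, 25093799 to 25097140), did not pass the test. Its levels were 43.6, 43.5 and 46.7 CPM with vehicle and 41.5, 39.4 and 47.4 CPM with NETs. The highest and the lowest library were both NETs libraries. The fitted change was −0.05 on the log2 scale (SE 0.11, adjusted p = 0.890 by edgeR), with a 95% interval from −0.28 to 0.19. Markers of NK and innate lymphoid cells, which carry much Id2, summed to between 14.4 and 18.4 CPM with vehicle and between 12.7 and 15.1 CPM with NETs. Eomes (4.14 to 10.1 CPM), Klrd1, Prf1 and Nkg7 gave most of those sums. Ncr1, Klrb1c, Gzma and Klrg1 reached at most 0.272 CPM in a library. The part of these cells in the Id2 level was not tested.

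Id1, which in many tissues is switched on by BMP signals (ENSMUSG00000042745; chromosome 2, 152736251 to 152737410), was scarce. It had 28, 10 and 19 reads with vehicle and 15, 27 and 26 with NETs, or 1.501, 0.639 and 1.18 CPM and 0.874, 1.47 and 1.52 CPM. The groups overlapped, and the lowest library was vehicle replicate 2. At 10 reads the 95% Poisson interval, which covers counting error only, ran from 0.306 to 1.17 CPM. The fitted change of 0.22 on the log2 scale (SE 0.50, adjusted p = 0.888 by edgeR) had a 95% interval from −0.84 to 1.29, the widest of the 6 genes. That interval held 0, so the direction of any change was not settled. The remaining family member Id4 had 1 read in vehicle replicate 1 and 0 in the other libraries, a level at which no comparison was made.

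**Figure D1:**
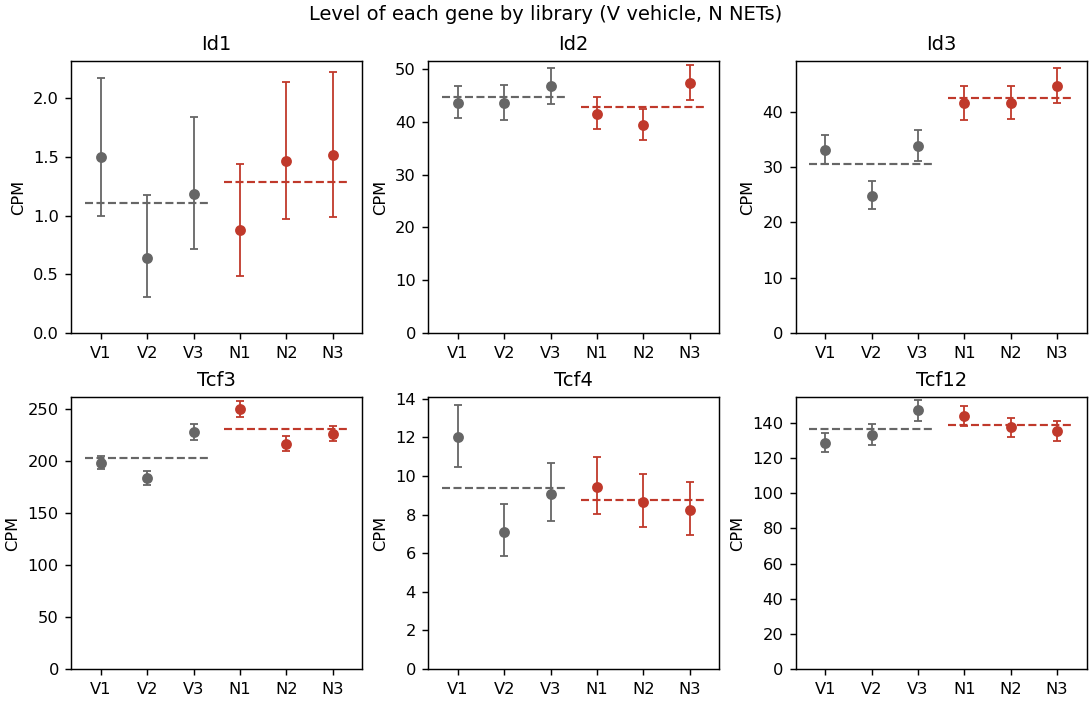
CPM (reads scaled to total counts, linear axis from 0) of each gene in vehicle (V1 to V3, grey) and NETs (N1 to N3, red) libraries, with 95% Poisson counting intervals as bars and group means as dashed lines. Id3 is the panel in which the groups do not overlap (24.8 to 33.8 CPM against 41.5 to 44.6 CPM), and Id1 is the one whose counting intervals are widest relative to its level.

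Among the E protein genes, Tcf3 (ENSMUSG00000020167; chromosome 10, 80409514 to 80433647) was the most abundant and had the largest difference, which did not pass. It stood at 199, 183 and 228 CPM with vehicle and at 250, 217 and 226 CPM with NETs. Vehicle replicate 3 lay above NETs replicates 2 and 3. The means were 203 ± 22.7 and 231 ± 17.0 CPM (SD, n = 3 per group). The fitted change was 0.20 on the log2 scale (SE 0.09, adjusted p = 0.398 by edgeR), with a 95% interval from −0.003 to 0.40. B cells also carry Tcf3, and 10 B cell markers summed to between 422 and 484 CPM with vehicle and between 397 and 424 CPM with NETs. The immunoglobulin gene Ighm alone gave 381 to 463 CPM of these sums. Of the scarcer markers, the B cell factor Pax5 lay lower in every NETs library than in every vehicle library (−1.11 on the log2 scale, SE 0.41, adjusted p = 0.292 by edgeR), while Cd79b overlapped between the groups. The part of B cells in the Tcf3 level was not tested.

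Tcf12, which works beside Tcf3 in thymocytes (ENSMUSG00000032228; chromosome 9, 71842688 to 72111871), overlapped between the groups. Its values were 129, 133 and 147 CPM with vehicle and 144, 138 and 135 CPM with NETs. All 3 NETs values fell inside the vehicle range. The fitted change of 0.04 on the log2 scale (SE 0.08, adjusted p = 0.887 by edgeR) had a 95% interval from −0.14 to 0.22, the narrowest of the 6 genes.

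Tcf4, the E protein that marks plasmacytoid dendritic cells (ENSMUSG00000053477; chromosome 18, 69343356 to 69689079), was the scarcest of its family. It stood at 12.01, 7.09 and 9.08 CPM with vehicle and at 9.43, 8.64 and 8.22 CPM with NETs. The vehicle libraries spread more widely than counting error allows, since the 95% Poisson interval of replicate 1 (10.5 to 13.7 CPM) did not meet that of replicate 2 (5.83 to 8.54 CPM), and the NETs libraries lay between them. The fitted change was −0.09 on the log2 scale (SE 0.21, adjusted p = 0.895 by edgeR), with a 95% interval from −0.54 to 0.37, and it was 0.12 without vehicle replicate 1. Siglech, a defining gene of plasmacytoid dendritic cells, had reads in NETs replicate 1 only (0.175 CPM), and 9 markers of those cells summed to between 107 and 123 CPM with vehicle and between 99.8 and 111 CPM with NETs. Bst2, Ccr9 and Il3ra, which other cells also express, gave most of those sums, and each overlapped between the groups, while Klk1 was at 0 in every library.

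Of the 5 genes other than Id3, 0 passed the adjusted threshold and 0 had an unadjusted p under 0.05. Among all genes tested the shares were 0% and 12.8%. The log2 fold change was above 0 for Id1, Id3, Tcf3 and Tcf12 and below 0 for Id2 and Tcf4, and above 0 for 50.2% of the genes tested. The sign of the log2 fold change was the same in all 6 fits without 1 library for Id3 and Tcf3. It turned for the other genes in 1 fit each: Id1 without vehicle replicate 2 (−0.04), Id2 without NETs replicate 2 (0.01), and Tcf4 (0.12) and Tcf12 (−0.01) without vehicle replicate 1.

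**Figure D2:**
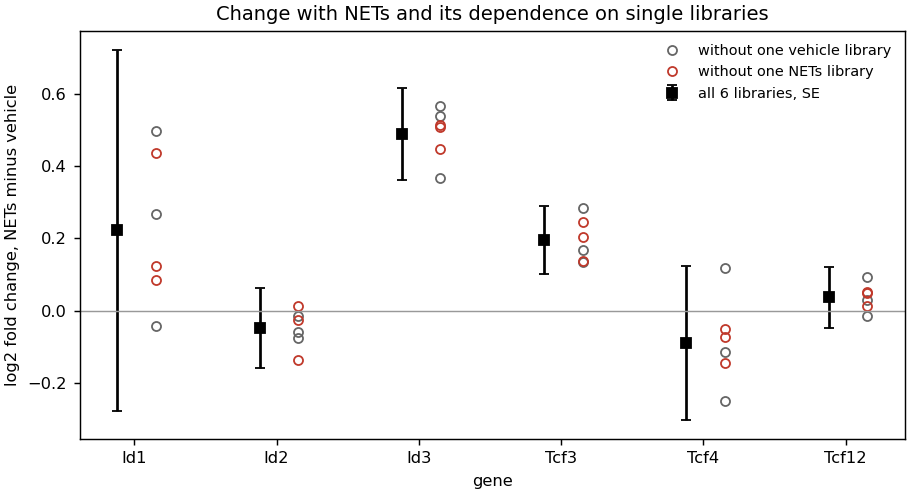
Log2 fold change (NETs minus vehicle) of each gene from all 6 libraries (black squares, bars are the SE) and from the fits that leave out 1 vehicle library (grey circles) or 1 NETs library (red circles). For Id3 the circles lie between 0.37 and 0.57, while those of Id1, Id2, Tcf4 and Tcf12 fall on both sides of 0.

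Genes that overlap the members in the table could share their reads, since the sources used here do not say whether strand was used. Id1, Id2, Id3 and Tcf3 had 0 overlapping genes, and the 1 inside Tcf4 had 0 reads. Tcf12 held 11 genes, of which 5 had reads and 1 was tested. That one, Gm38057 (chromosome 9, 71852001 to 71855203, same strand), overlapped 0 Tcf12 exons. It had 39, 30 and 31 reads with vehicle and 14, 24 and 11 with NETs. In contrast to Tcf12, the level of Gm38057 was lower in every NETs library than in every vehicle library (−1.08 on the log2 scale, SE 0.46, adjusted p = 0.346 by edgeR). It reached at most 1.62% of the Tcf12 counts in a library.

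Set beside each other per length, Tcf3 and Tcf12 had higher means than the Id genes with vehicle, while Tcf4 lay below Id3 and Id2. In FPKM the vehicle means were 90.4 ± 10.1 for Tcf3, 55.3 ± 3.87 for Tcf12, 40.0 ± 6.52 for Id3, 31.9 ± 1.29 for Id2, 5.37 ± 1.41 for Tcf4 and 1.06 ± 0.416 for Id1 (SD, n = 3). Tcf3 lay above 89.4% of the genes tested and Id1 above 13.1%. Neighbours in this order did not overlap between libraries, with 1 exception: Id3 reached down to 32.5 FPKM and Id2 up to 33.4 FPKM. With NETs the order was the same in the means, at 103 ± 7.57, 56.3 ± 1.80, 55.7 ± 2.33, 30.6 ± 2.96, 5.01 ± 0.352 and 1.23 ± 0.342 FPKM. Id3 (54.4 to 58.4 FPKM) then overlapped Tcf12 (54.8 to 58.3 FPKM) and stood clear of Id2 (28.2 to 33.9 FPKM).

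**Figure D3:**
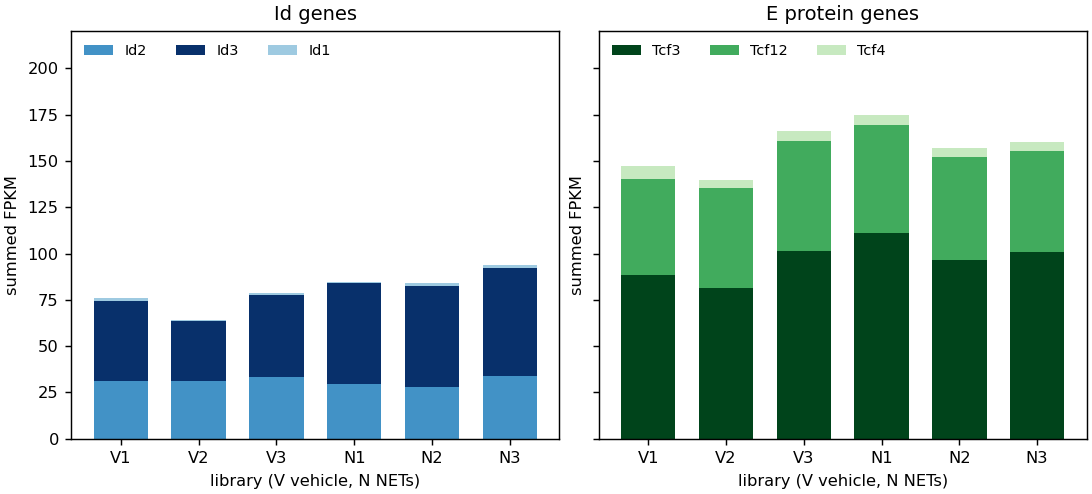
Summed FPKM of the Id genes (left) and the E protein genes (right) in each vehicle (V1 to V3) and NETs (N1 to N3) library, on one linear axis from 0, with 1 colour per gene. The Id sum lies between 64.2 and 93.7 FPKM and the E sum between 140 and 175 FPKM, and the Id2 segment lies between 28.2 and 33.9 FPKM.

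Summed over each family, the Id genes reached 75.9, 64.2 and 78.8 FPKM with vehicle and 84.9, 83.9 and 93.7 FPKM with NETs. The E protein genes reached 147, 140 and 166 FPKM with vehicle and 175, 157 and 160 FPKM with NETs. The ratio of the Id sum to the E sum was 0.515, 0.460 and 0.474 with vehicle and 0.485, 0.534 and 0.585 with NETs. These ratios overlapped between the groups, with means of 0.483 ± 0.029 and 0.535 ± 0.050 (SD, n = 3 each). In NETs replicate 1, the library with the highest Tcf3, the ratio was below that of vehicle replicate 1. Without the Id3 reads the ratio was 0.219 ± 0.010 with vehicle and 0.195 ± 0.024 with NETs.

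The makeup of the Id sum did separate the groups. It shares its reads with the Id3 comparison, so it is no separate evidence. Id3 made up 57.0%, 50.6% and 56.2% of it with vehicle and 64.0%, 64.8% and 62.3% with NETs. Id2 made up 43.96% ± 3.91 with vehicle and 34.9% ± 1.30 with NETs. Within the E sum Tcf3 took 59.9%, 58.4% and 61.0% with vehicle and 63.6%, 61.4% and 62.8% with NETs, so its lowest NETs share was just above its highest vehicle share.

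The rank of Id3 against its relatives depends on the length that reads are divided by. The FPKM of these genes rests on the mean length of all annotated transcripts, which is 764 bases for Id3, because a retained-intron and a short processed transcript as brief as 277 bases are averaged with the coding transcript of 1278 bases. For Id2, whose 3 annotated transcripts are all coding, it is 1399 bases. Dividing CPM by the mean length of coding transcripts in kilobases, Id3 averaged 23.9 ± 3.90 with vehicle and 33.3 ± 1.39 with NETs, and Id2 31.9 ± 1.29 and 30.6 ± 2.96 (SD, n = 3 each). On that scale Id3 lay below Id2 in every vehicle library and above it in every NETs library, and Tcf12, at 49.9 ± 1.60 with NETs, stood clear of both. The ratio of Id3 to Id2 was 0.830, 0.625 and 0.793 with vehicle and 1.09, 1.15 and 1.03 with NETs. In FPKM the same ratio was 1.39, 1.05 and 1.33 with vehicle and 1.83, 1.93 and 1.72 with NETs. With vehicle it fell on both sides of 1 per deposited gene length (1.03, 0.778 and 0.986) and per longest coding transcript (1.17, 0.880 and 1.12). Both coding lengths were chosen after seeing the data. The NETs mean was 1.46-fold the vehicle mean with any of these lengths, since the length cancels. This ratio uses the Id3 reads, so it is no separate evidence.

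**Figure D4:**
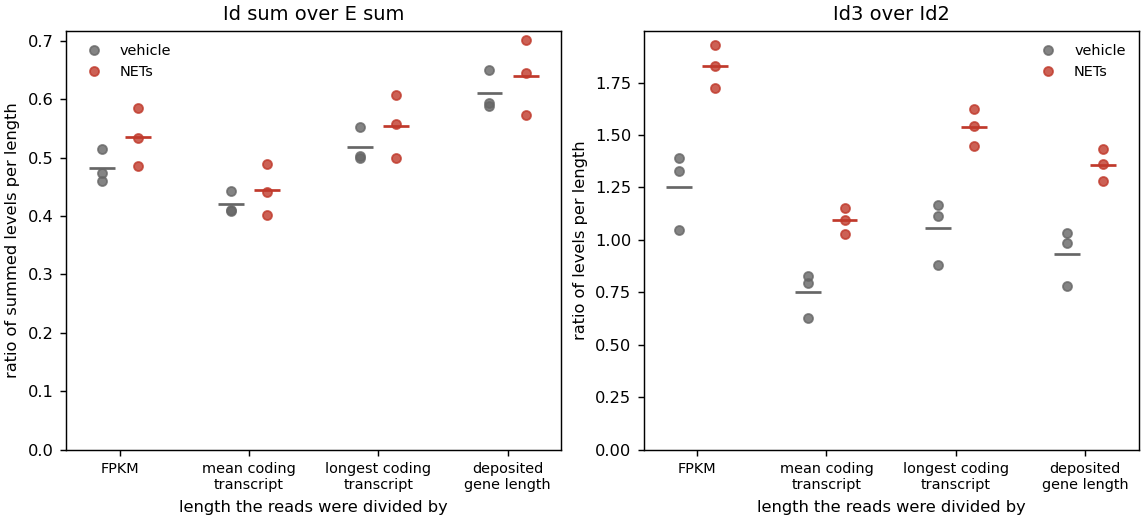
Ratio of the Id sum to the E sum (left) and of Id3 to Id2 (right) for 4 lengths that the reads were divided by, with 1 point per library (vehicle grey, NETs red) and the group mean as a short line. The groups overlap on the left for every length. On the right they do not, and the vehicle values lie above 1 in FPKM and below 1 with the mean coding length. With the longest coding transcript and the deposited gene length, the vehicle values lie on both sides of 1.

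Inputs known to drive Id genes were examined next, from lists chosen for their role but with earlier results of these data known. The T cell receptor, ERK and Egr list, the route best known for Id3, had 17 genes, all tested. Of them 0 passed the adjusted threshold, 1 was higher and 0 lower at an unadjusted p under 0.05 (5.88%, against 12.8% of all genes tested), and the median log2 fold change was 0.06, against 0.001 for all genes tested. Egr1, the immediate early factor that binds the Id3 regulatory region, stood at 37.5, 32.5 and 23.8 CPM with vehicle and at 25.9, 45.2 and 23.4 CPM with NETs, with both groups spread across the same range. Egr3 had a log2 fold change of 0.32 (SE 0.21) and the GTPase Hras one of 0.36 (SE 0.15), with edgeR adjusted p-values of 0.551 and 0.331. Without 1 library Egr3 ran from 0.15 (without vehicle replicate 2) to 0.53 (without vehicle replicate 1). Hras ran from 0.23 (without vehicle replicate 2) to 0.55 (without vehicle replicate 3), where its edgeR adjusted p was 0.0423, and that p reached 0.812 over the alternatives.

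The BMP and TGF-beta list, whose receptors act on Id genes through Smad proteins, had 27 genes, of which 22 were tested and 0 passed. At an unadjusted p under 0.05, 1 was higher and 2 were lower (13.6%, near the 12.8% of all genes tested), and the median was −0.01. The ligand Tgfb1 stood at 176, 189 and 215 CPM with vehicle and at 241, 221 and 232 CPM with NETs, above all vehicle libraries. The fitted change was 0.27 on the log2 scale (SE 0.09, adjusted p = 0.258 by edgeR). Over the alternatives its adjusted p ran from 0.0473 (edgeR without vehicle replicate 3) to 0.812. The BMP-responsive Smad5 had 58.7, 59.8 and 52.2 CPM with vehicle and 42.7, 42.4 and 47.1 CPM with NETs, or −0.36 on the log2 scale (SE 0.10, adjusted p = 0.223 by edgeR). Smad3, a carrier of the TGF-beta signal, was at −0.25 (SE 0.10; adjusted p = 0.331). The inhibitory Smad7, itself a target of that signal, was at 0.14 (SE 0.14; adjusted p = 0.697), and ran from 0.016 without vehicle replicate 3 to 0.27 without vehicle replicate 2.

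Most possible partners of the family were too scarce to test. Of 25 other helix-loop-helix genes, such as Tal1, which pairs with E proteins in blood progenitors, 5 were tested and 0 passed. Tal1 itself had between 0 and 0.497 CPM. At an unadjusted p under 0.05 there was 1 gene, 20% of those tested, against 12.8% of all genes tested. It was Mxi1, which instead pairs with Max (−0.28 on the log2 scale, SE 0.12, adjusted p = 0.368 by edgeR). Among 19 co-regulators of E proteins, 18 were tested, 0 passed and the median was 0.002. Of those tested, 1 gene (5.56%) had an unadjusted p under 0.05, against 12.8% of all genes tested. The histone deacetylase Hdac1 was at 0.25 (SE 0.09; adjusted p = 0.294).

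Id and E proteins are also set by their breakdown. Of 14 genes of that kind, all tested, 0 passed, while 2 were higher and 1 lower at an unadjusted p under 0.05 (21.4%, against 12.8% of all genes tested). Anapc2, a subunit of the ubiquitin ligase that marks Id proteins in the cell cycle, was at 0.22 (SE 0.09) and the chaperone-linked ligase Stub1 at 0.28 (SE 0.11). The kinase Jak2 was lower in all 3 NETs libraries, at 262, 273 and 247 CPM against 312, 323 and 316 CPM with vehicle. The fitted change was −0.27 on the log2 scale (SE 0.08, adjusted p = 0.223 by edgeR). Over the alternative settings its adjusted p ran from 0.0409 (DESeq2) to 0.812 (edgeR without NETs replicate 1). Usp1, which spares Id proteins by removing ubiquitin, was at 260, 266 and 262 CPM with NETs, inside its vehicle range of 240 to 273 CPM.

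Genes that E proteins are known to bind or control in T cells numbered 36, of which 32 were tested. Of these 0 passed the adjusted threshold, 2 were higher and 4 lower at an unadjusted p under 0.05 (18.8%, against 12.8% of all genes tested), and the median was −0.03. The thymic targets Rag1, Rag2 and Ptcra were at or near 0 reads in all libraries, with at most 0.408 CPM. Il7r, the IL-7 receptor chain that E proteins keep on, stood at 201, 213 and 154 CPM with vehicle and at 105, 133 and 146 CPM with NETs. Every NETs library lay below every vehicle library, at −0.56 on the log2 scale (SE 0.14, adjusted p = 0.223 by edgeR). The adjusted p was under the threshold by DESeq2 (0.0138), and in edgeR without vehicle replicate 3 (0.0191) and with no filter on low counts (2.05e-05). Its range over the alternatives reached 0.812, in edgeR without NETs replicate 1.

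Cxcr4, a chemokine receptor under E protein control in thymocytes, stood at 62.6, 72.0 and 53.8 CPM with vehicle and at 40.7, 44.0 and 53.7 CPM with NETs. The groups did not overlap, although vehicle replicate 3 and NETs replicate 3 nearly met. The fitted change was −0.43 on the log2 scale (SE 0.13, adjusted p = 0.226 by edgeR), and the adjusted p over the alternatives ran from 0.0234 (no filter on low counts) to 0.812. The repressor Gfi1 was at −0.22 (SE 0.10; adjusted p = 0.390). Higher values were found for Socs1, an inhibitor of cytokine signals (0.29, SE 0.11; adjusted p = 0.305, and from 0.0404 without vehicle replicate 3 to 0.815 over the alternatives), and for the homeobox gene Hhex. Hhex had 7, 0 and 1 reads with vehicle and 16, 14 and 14 with NETs. Its fitted change was 2.40 on the log2 scale (SE 0.83, adjusted p = 0.271 by edgeR). Without 1 library it ran from 1.88 (without vehicle replicate 2) to 4.44 (without vehicle replicate 1). By limma-trend on FPKM at a pseudocount of 1 it was 0.48. Foxp3, whose induction has been tied to E proteins and Id3, overlapped between the groups at 0.20 (SE 0.13; adjusted p = 0.546). Without 1 library it ran from 0.055 (without vehicle replicate 1) to 0.36 (without vehicle replicate 3).

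**Figure D5:**
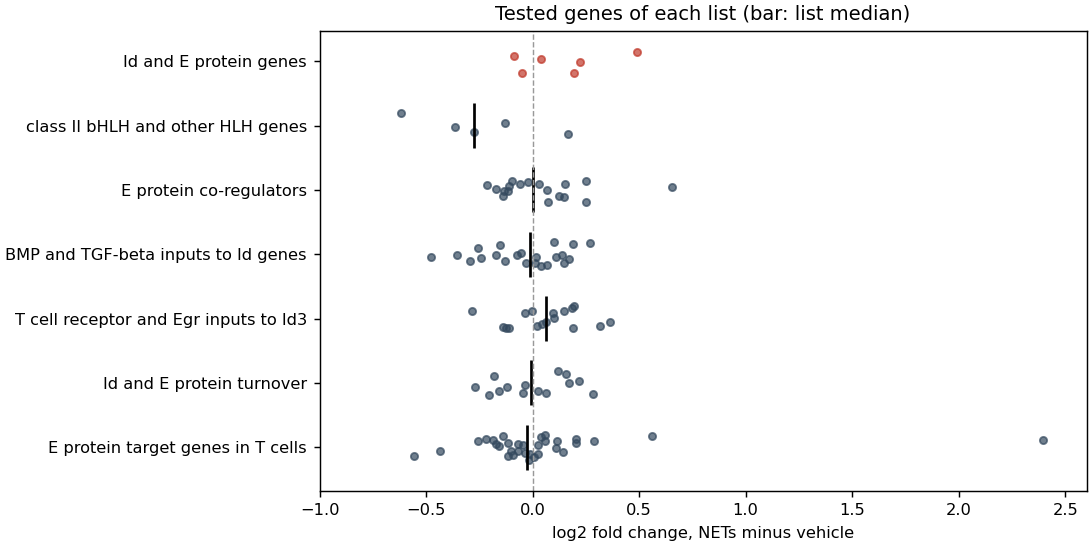
Log2 fold change (NETs minus vehicle) of every tested gene in the Id and E protein family (red) and in 6 lists of related genes (dark), with the median of each of those 6 lists as a black bar and the median of all genes tested as a dashed line. The list medians lie between −0.28 and 0.06, and the point far to the right is Hhex at 2.40, a gene with at most 16 reads in a library.

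The genes whose profile over the 6 libraries was most like that of Id3 were picked by Pearson's r of log2 CPM among 9592 named genes of at least 5 CPM. They were Fen1, the flap endonuclease of DNA replication (r = 0.992), Tomm5, of the mitochondrial import pore (0.990), Necab3 (0.986), the mitochondrial translation factor Tsfm (0.986) and Glce, an enzyme of heparan sulfate synthesis (0.982). With 6 libraries and so many candidates, such values describe these libraries only. Fen1 ran at 14.8, 9.52 and 15.2 CPM with vehicle and at 19.5, 18.4 and 20.8 CPM with NETs. Like Id3, each of the 5 was lowest in vehicle replicate 2. Such likeness follows from how these genes were picked and is no separate evidence.

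The closest profiles differed from gene to gene across the family. They were Zfpm1, Mydgf and Rnaseh2c for Tcf3, Timm29, Tle1 and Fubp3 for Tcf12, and Ago2, Homez and Fer1l5 for Tcf4. For Id2 they were Ocel1, Ppp2r5e and Wdr41, and for Id1 Htatsf1, Fam120c and Poldip2.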

How the data were processed

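The members and gene lists were chosen with earlier results of these data known. Whole-number counts for each Ensembl gene were deposited in a pair of tables with identical values, and FPKM values were deposited beside them. The submitters' processing notes name STAR, DESeq2 and build mm9. The sources used here do not give the counting program or say whether strand was used. Coordinates in the deposited table equalled those of GENCODE M21 (GRCm38) for 98.3% of 54409 shared genes and are used as GRCm38. For 95.2% of 12419 genes with at least 10 reads in every library, the length behind the FPKM that the authors deposited equalled, within 1%, the mean length of the gene's annotated transcripts, as it did for all 6 members.

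Counts kept by filterByExpr (13900 genes) were scaled by TMM and tested with edgeR 4.0.16 in R 4.3.3 (robust quasi-likelihood fit, group as the only term, two-sided, Benjamini-Hochberg adjustment over all genes tested, threshold 0.05). CPM in the text uses total counts without TMM factors. In simulated counts for this comparison (13615 genes), only genes of at least 5 CPM were changed, and each library was drawn independently. Of genes changed 1.4-fold 50.7% were recovered, and of those changed 2-fold 92.5%, with 15 false calls. These shares do not cover scarcer genes such as Id1, or libraries that deviate together. Alternatives were DESeq2 1.42.0, limma 3.58.1, other filters, scaling, a replicate block and each library left out. Named genes were the members, list genes at an unadjusted p under 0.05, textbook examples, the closest profiles (log2 CPM, prior count 2) and overlapping genes. One gene that this rule names is not reported here.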

Additional observations from a re-analysis of the deposited data

How the results depend on the processing

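The edgeR count of 0 genes past the threshold was also 0 with RLE size factors, with a mean of at least 5 CPM and with the replicate block. It was 162 by DESeq2, 322 with no filter on low counts, 1 by limma-voom and 2 by limma-trend on FPKM at a pseudocount of 1 or 0.1. Without 1 library it ran from 0 to 405, and the highest was without vehicle replicate 3. The cause was not tested. Same-numbered libraries did not deviate together (r = −0.0777, −0.153 and −0.328 over 10081 genes). Differently numbered libraries did in 3 cases, vehicle 2 with NETs 3 (0.447), vehicle 3 with NETs 1 (0.375) and vehicle 1 with NETs 2 (0.212), which no label pairs. Deviations from a group mean sum to 0, so a library with a negative value for 1 partner must have a positive value for another. These positive values are therefore no separate evidence. The numbers were not taken as pairs. With the block 1338 genes had an unadjusted p under 0.05 against 1776 without it.

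The log2 fold change of Id3 ran from 0.47 to 0.50 over the other settings. Without 1 library the ranges were −0.042 to 0.50 for Id1, −0.13 to 0.014 for Id2, 0.37 to 0.57 for Id3, 0.13 to 0.29 for Tcf3, −0.25 to 0.12 for Tcf4 and −0.014 to 0.094 for Tcf12. Reads of Id1 are too few for its change to be placed. Per deposited gene length, the ratio of the Id sum to the E sum was 0.611 with vehicle and 0.640 with NETs. Per mean coding length, chosen after seeing the data, it was 0.421 and 0.445, and per longest coding transcript, also chosen then, 0.519 and 0.555. The ratio of the NETs to the vehicle mean stayed between 1.05 and 1.16 in these settings, with Tcf4 left out and without 1 library.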
